A study of Mus musculus with 2 samples.

Results

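The genes described here are 10 genes of the TFEB family and of nutrient sensing at the lysosome. They were taken by gene symbol from the deposited expression table, and all 10 were found among its 31920 symbols. The rule used no measured value, although earlier results of these data were known when the genes were chosen. They comprise the MiT/TFE transcription factor genes Tfeb, Tfe3 and Mitf, the folliculin complex genes Flcn, Fnip1 and Fnip2, the Rag GTPase genes Rraga, Rragc and Rragd, and the lysosomal calcium channel gene Mcoln1. The study sequenced polyadenylated RNA from the cardiac left ventricle of male mice of the 129-SvEv strain at 10 weeks of age. Each group was 1 library, a wildtype and one labelled Lamp2 knockout, which is called the knockout-labelled library here. The labels name no treatment. The sample descriptions read L2_WT for the wildtype and L2_HEMI for the knockout-labelled library, and Lamp2 lies on the X chromosome. Beyond this the labels do not describe the knockout allele, and do not state whether a library pooled animals. With 1 library per group no difference has a replicate check, no test of the genotypes was possible and no p-value is given. Intervals are 95% and cover counting error only.

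Tfeb, Tfe3 and Mitf encode related helix-loop-helix leucine zipper factors that switch on genes of lysosomes and autophagy, many through a DNA element centred on the E-box hexamer CACGTG. When amino acids are plentiful, Rag GTPase pairs at the lysosome hold these factors next to the kinase mTORC1, which phosphorylates them and keeps them in the cytoplasm. Folliculin, bound to FNIP1 or FNIP2, converts RagC or RagD to the form that presents the factors to the kinase. Calcium released through the channel MCOLN1 activates calcineurin, which removes the phosphates and lets the factors enter the nucleus. In striated muscle, lysosomal turnover depends on this pathway. RNA levels do not show the phosphorylation or location of the factors.

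Because the factors of this family bind the E-box hexamer and genes of their own control circuit are among their known targets, the start regions of the 10 genes were searched for it. RefSeq windows on GRCm38.p6, from 250 bases before to 50 bases after each annotated start, were given for all 10 genes. These were 15 windows, of which 3 were of Tfeb, 3 of Mitf and 2 of Tfe3. The hexamer CACGTG, which reads alike on both strands, was found in 3 windows, those of Mcoln1, Rragc and Fnip1. Mcoln1 held 2 copies, which began 71 and 45 bases before the start. The copy of Rragc began 112 bases before the start and that of Fnip1 75 bases before it. Of all 32851 windows of the same length, 7.15% held at least 1 copy and 0.594% held 2 or more. The 250 bases before the start of these 3 genes are shown 5′ to 3′ with the hexamer in capitals, because the genes share it and, as given below, did not lie on the same side of 1 in the comparison of the libraries.
Mcoln1, chr8:3500269-3500518, plus strand: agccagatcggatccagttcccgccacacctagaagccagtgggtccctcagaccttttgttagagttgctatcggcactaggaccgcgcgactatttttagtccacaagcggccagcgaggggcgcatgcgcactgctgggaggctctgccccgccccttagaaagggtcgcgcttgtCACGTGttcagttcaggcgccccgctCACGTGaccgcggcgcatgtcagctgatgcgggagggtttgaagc
Rragc, chr4:123917183-123917432, plus strand: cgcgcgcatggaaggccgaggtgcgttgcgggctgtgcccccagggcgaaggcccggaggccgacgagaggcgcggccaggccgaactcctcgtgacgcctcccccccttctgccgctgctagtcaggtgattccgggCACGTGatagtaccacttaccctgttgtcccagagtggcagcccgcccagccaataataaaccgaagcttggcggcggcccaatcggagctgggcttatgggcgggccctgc
Fnip1, chr11:54437929-54438178, plus strand: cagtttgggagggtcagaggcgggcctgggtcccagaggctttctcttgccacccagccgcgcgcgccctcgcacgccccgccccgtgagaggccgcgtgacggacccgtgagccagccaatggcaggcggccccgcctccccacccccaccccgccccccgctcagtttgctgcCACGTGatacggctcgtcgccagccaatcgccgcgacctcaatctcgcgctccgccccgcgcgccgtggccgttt
A match describes the letters and does not show binding. The windows of the other 7 genes did not contain the hexamer.

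Reads assigned to genes numbered 8410593 in the wildtype library and 8773820 in the knockout-labelled library. Levels are RPM, the reads of a gene per 1000000 reads assigned to genes. A count of 0 allows up to 3 reads, which correspond to 0.357 and 0.342 RPM. A gene counted as measured at 5 RPM or more in the higher library, which held for 10209 genes. Mitochondrial genome rows made up 26.5% and 16.2% of the reads (wildtype and knockout-labelled), and the RPM of every other gene depends on that share. The median ratio of measured genes, knockout-labelled over wildtype, was 1.08. Lamp2 itself had 118 RPM in the wildtype and 112 RPM in the knockout-labelled library, a ratio of 0.955 (0.873 to 1.04). Under the 3 rescalings described below the ratio was 0.880 (0.805 to 0.963), 0.879 (0.804 to 0.961) and 0.834 (0.762 to 0.911). Most of its reads thus remained, and the level of the targeted gene does not check the genotype label. The 7 cardiomyocyte markers were abundant in both libraries, with log2 ratios from −0.08 for Myl2 to 1.94 for the stress gene Nppa, the only one called, and a median of 0.11.

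All 10 genes were measured in both libraries, at levels between 12.4 and 146 RPM. In the knockout-labelled library Fnip2, which encodes a folliculin partner, stood at more than 2 times its wildtype level. The RagC gene Rragc and the channel gene Mcoln1 were about 1.5 times their wildtype levels. Fnip1 and Mitf were lower. A gene was called if its log2 ratio, computed with 1 RPM added to each level, was at least 1 in size. By this rule 1 of the 10 genes was called higher and 0 lower, beside 3.35% of all measured genes called higher and 2.37% called lower. These shares are 342 and 242 genes, and under the rescalings described below the balance turned to 250 and 308, 249 and 310, and 215 and 375. The interval of the ratio lay above 1 for 6 of the 10 genes, below 1 for 3 and included 1 for Flcn. Among all measured genes it lay above 1 for 35% and below 1 for 16.8%. The median log2 ratio of the 10 genes was 0.27, against 0.11 for all measured genes, whose quartiles were −0.16 and 0.39. The plot of levels by gene shows the members that stood apart and those that did not.

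**Figure D1:**
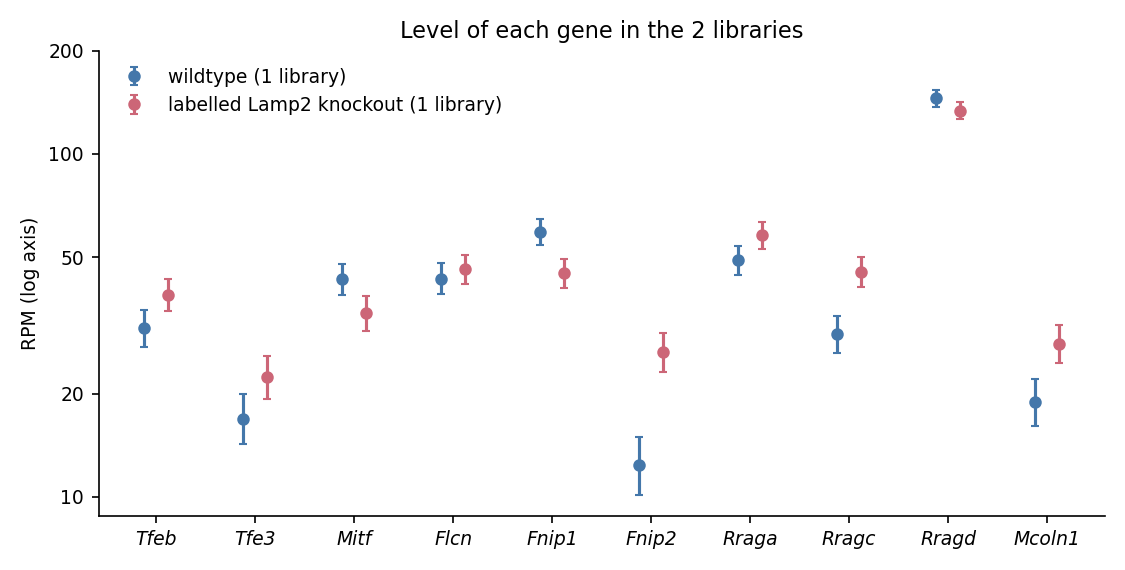
RPM of each of the 10 genes (log axis) in the wildtype library and the library labelled Lamp2 knockout, 1 library each, with exact 95% Poisson intervals for counting error. Fnip2 stands at 12.4 and 26.4 RPM with intervals that do not overlap, and those of Flcn overlap widely; the scale is not corrected for gene length.

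Among the transcription factor genes, Tfeb and Tfe3 were slightly higher and Mitf lower in the knockout-labelled library. Tfeb, named for its factor EB, lies on the plus strand of chromosome 17 from 47737037 to 47792416 in the mm10 build. Its reads numbered 261 (wildtype) and 341 (knockout-labelled library), or 31.0 and 38.9 RPM. Its ratio was 1.25 (1.06 to 1.48). A cDNA clone row on the opposite strand overlaps the last 380 bases of Tfeb, with 43 and 45 reads, and it is not given in the sources used here whether reads were assigned by strand. Tfe3, a close relative that acts together with TFEB on lysosomal genes, lies on the X chromosome from 7762661 to 7775202. It had 142 and 196 reads, or 16.9 and 22.3 RPM, a ratio of 1.32 (1.06 to 1.65). Both ratios lay above 1 by more than counting error on the deposited scale. They no longer did under each of 3 rescalings described below.

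Mitf, best known for its role in pigment cells and mast cells and also expressed in heart muscle, lies on chromosome 6 from 97807058 to 98021358. Its reads numbered 363 (wildtype) and 301 (knockout-labelled), or 43.2 and 34.3 RPM. The ratio was 0.795 (0.680 to 0.929), below 1 by more than counting error. Mitf and Tfeb each have 3 annotated start regions in RefSeq, and a count per gene pools the transcripts from all of them. In bulk tissue, fewer cells of a type and less RNA per cell cannot be told apart. Markers of the other cells known for Mitf were scarce in both libraries. The 5 melanocyte markers summed to 4.04 and 5.36 RPM, with Tyr and Tyrp1 at 0 reads in both and Dct at 25 and 35 reads. The 6 mast cell markers summed to 5.47 and 3.42 RPM, with Fcer1a at 0 reads in both. Cma1 (13 and 4 reads), Mcpt4 (6 and 0) and Kit (10 and 3) had fewer reads in the knockout-labelled library. Cpa3 (2 and 5) and Tpsb2 (15 and 18) had more. The part of these cells in the values of Mitf was not tested. The fourth family member, Tfec, which is known from macrophages, had 0 reads in both libraries.

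In the folliculin complex, the core subunit was alike in both libraries while its partner genes lay on opposite sides of 1. Flcn, which encodes folliculin, the subunit that stimulates GTP hydrolysis by RagC and RagD, lies on the minus strand of chromosome 11 from 59791751 to 59809836. It stood at 43.3 and 46.2 RPM, and its ratio of 1.07 (0.923 to 1.23) did not differ from 1 beyond counting error. Fnip1, the partner known to be needed for B cell development and for the fibre type of skeletal muscle, lies on chromosome 11 from 54438179 to 54518241. It was lower in the knockout-labelled library, at 499 wildtype reads and 394 in the other library, or 59.3 and 44.9 RPM. The ratio of Fnip1 was 0.757 (0.662 to 0.866), and 87.2% of measured genes had a higher log2 ratio.

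Fnip2, the alternative partner, lies on the minus strand of chromosome 3 from 79455971 to 79567679. Wildtype reads numbered 104 and knockout-labelled reads 232, or 12.4 and 26.4 RPM. The ratio was 2.14 (1.69 to 2.72) and the log2 ratio 1.04, just past the rule of size, and 3.07% of measured genes had a higher one. No reads were listed for the row that overlaps Fnip2 on the opposite strand, Gm17359. The call did not survive rescaling, with log2 ratios of 0.93, 0.92 and 0.85, although the interval of the ratio stayed above 1 each time.

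Among the Rag GTPases, Rragc was higher, Rraga slightly higher and Rragd slightly lower in the knockout-labelled library. The proteins work in pairs, RagA or RagB with RagC or RagD. Rraga, which encodes RagA and has 1 annotated transcript, lies on chromosome 4 from 86575673 to 86577283. It stood at 49.1 and 57.9 RPM, a ratio of 1.18 (1.03 to 1.35), which included 1 under each rescaling. Its relative Rragb, which encodes RagB, was nearly absent, with 9 and 5 reads, or 1.07 and 0.570 RPM.

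Rragc encodes RagC and lies on chromosome 4 from 123917433 to 123936997. Wildtype reads numbered 251 and knockout-labelled reads 398, or 29.8 and 45.4 RPM, a ratio of 1.52 (1.29 to 1.79). Only Fnip2 had a higher ratio among the 10 genes, and 12.7% of all measured genes had a higher log2 ratio than Rragc. Rragd encodes RagD, a known target of the MiT/TFE factors, and lies on chromosome 4 from 32982998 to 33022180. It had the most reads of the 10 genes, with 1224 for wildtype and 1173 for knockout-labelled, or 146 and 134 RPM. The ratio of Rragd was 0.919 (0.847 to 0.996), so its difference was small and barely exceeded counting error on the deposited scale. A cDNA clone row on the same strand covers the last 1521 bases of Rragd, with 449 and 433 reads and a ratio of 0.924 (0.808 to 1.06), and how reads were divided between these rows is not given in the sources used here.

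Mcoln1, which encodes the lysosomal calcium channel mucolipin 1, lies on chromosome 8 from 3500519 to 3515231. There were 159 wildtype reads and 245 knockout-labelled reads, or 18.9 and 27.9 RPM. The ratio was 1.48 (1.20 to 1.81), above 1 by more than counting error on the deposited scale and under each rescaling. Its relatives were almost unread, with Mcoln2 at 2 and 5 reads and Mcoln3 at 0 reads in both libraries. Of the 3 genes whose start regions held the E-box hexamer, Mcoln1 and Rragc thus had ratios above 1 and Fnip1 a ratio below 1.

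The folliculin partners, the RagC and RagD genes and the MiT/TFE genes each held members on opposite sides of 1, while the sums over these 3 families were nearly equal on the deposited scale. A share of reads within a family does not depend on how a library is scaled. These families follow the known relations of the genes, and the shares were computed after the ratios were known. Among all measured genes 61.2% had a log2 ratio above 0, and the interval lay above 1 for 35% and below 1 for 16.8%. Related genes on opposite sides of 1 are therefore not unusual in these libraries. Shares were not computed for families outside the pathway, so how common such differences in share are is not known. Fnip2 took 17.2% of the reads of Fnip1 and Fnip2 in the wildtype (exact Clopper-Pearson interval 14.3 to 20.5) and 37.1% in the knockout-labelled library (33.3 to 41.0). The odds ratio between the libraries was 2.82 (2.15 to 3.73). The sum of Fnip1 and Fnip2 was 71.7 RPM (wildtype) and 71.3 RPM (knockout-labelled), a ratio of 0.995 (0.888 to 1.11). The balance between the folliculin partners therefore differed by more than counting error, and on this scale their sum did not. The sum, unlike the share, depends on the scaling, with ratios of 0.918 (0.819 to 1.03), 0.916 (0.818 to 1.03) and 0.869 (0.776 to 0.973) under the rescalings described below.

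For the Rag partners, Rragc took 17.0% of the reads of Rragc and Rragd in the wildtype (15.1 to 19.0) and 25.3% in the knockout-labelled library (23.2 to 27.6). The odds ratio was 1.65 (1.38 to 1.98). Their sum was 175 and 179 RPM, a ratio of 1.02 (0.950 to 1.10). Mitf took 47.4% of the reads of the MiT/TFE genes in the wildtype (43.8 to 51.0) and 35.9% in the other library (32.7 to 39.3), an odds ratio of 0.622 (0.507 to 0.764). The sum of the MiT/TFE genes was 91.1 and 95.5 RPM, a ratio of 1.05 (0.950 to 1.16). The first 2 rescalings left the intervals of both sums including 1. Under the third, the ratio was 0.891 (0.830 to 0.958) for the Rag pair and 0.916 (0.829 to 1.01) for the MiT/TFE genes. Tfeb and Tfe3 kept a like balance, since Tfe3 took 35.2% of their reads in the wildtype (30.6 to 40.1) and 36.5% in the other library (32.4 to 40.7). The odds ratio for Tfe3 was 1.06 (0.800 to 1.40). Both lay above 1, and their sum was 47.9 and 61.2 RPM, a ratio of 1.28 (1.12 to 1.46). It was 1.18 (1.03 to 1.34) under each of the first 2 rescalings and 1.12 (0.978 to 1.27) under the third. Shared sequence was searched with 1 transcript of each of the 10 genes, which was not always the longest annotated one. No stretch of 50 bases in these transcripts was shared with another of the 10 genes, or with Rragb, Tfec, Mcoln2 or Mcoln3. Of the stretches of this length in the Rragc transcript, 8.84% also occurred in other annotated genes, mostly on the opposite strand of 1 noncoding gene. That share was 0.869% for Fnip2, 0.200% for Rragd and 0 for the other 7 genes.

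**Figure D2:**
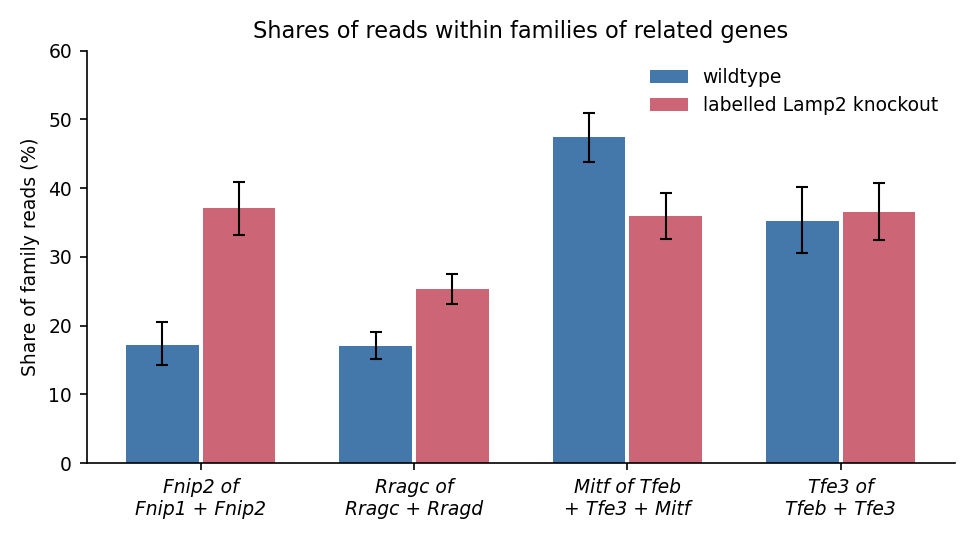
Share of reads (percent, axis from 0) taken by Fnip2, Rragc, Mitf and Tfe3 within the families named under the bars, in the wildtype library and the library labelled Lamp2 knockout, with exact 95% binomial intervals for counting error. The shares of Fnip2 (17.2% and 37.1%), Rragc (17.0% and 25.3%) and Mitf (47.4% and 35.9%) have intervals that do not overlap, and those of Tfe3 within Tfeb and Tfe3 overlap.

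For 6 of the 10 genes the interval stayed on the same side of 1 under every scaling tried. The first rescaling set the median ratio of measured genes to 1 and the second set a trimmed mean of their log ratios to 0. The third divided by library totals that left out mitochondrial transcripts and the top 10 genes by level. They lowered all log2 ratios without a pseudocount by 0.12, 0.12 and 0.20. Under each of them the intervals of Fnip2, Rragc and Mcoln1 lay above 1 and those of Mitf, Fnip1 and Rragd below 1, which is 30% of the genes on each side. Among all measured genes the interval lay above 1 for 25.9%, 25.7% and 20.4% and below 1 for 24.1%, 24.3% and 30.3%, so these counts are near the background. Those of Tfeb, Tfe3 and Rraga included 1 under each, with ratios still above 1, and so did that of Flcn. Fnip2 had ratios of 1.97, 1.97 and 1.87 under the rescalings, and Fnip1 ratios of 0.698, 0.697 and 0.661. Flcn changed sides, at 0.984, 0.982 and 0.931. The median log2 ratio of the 10 genes was 0.16, 0.16 and 0.08.

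**Figure D3:**
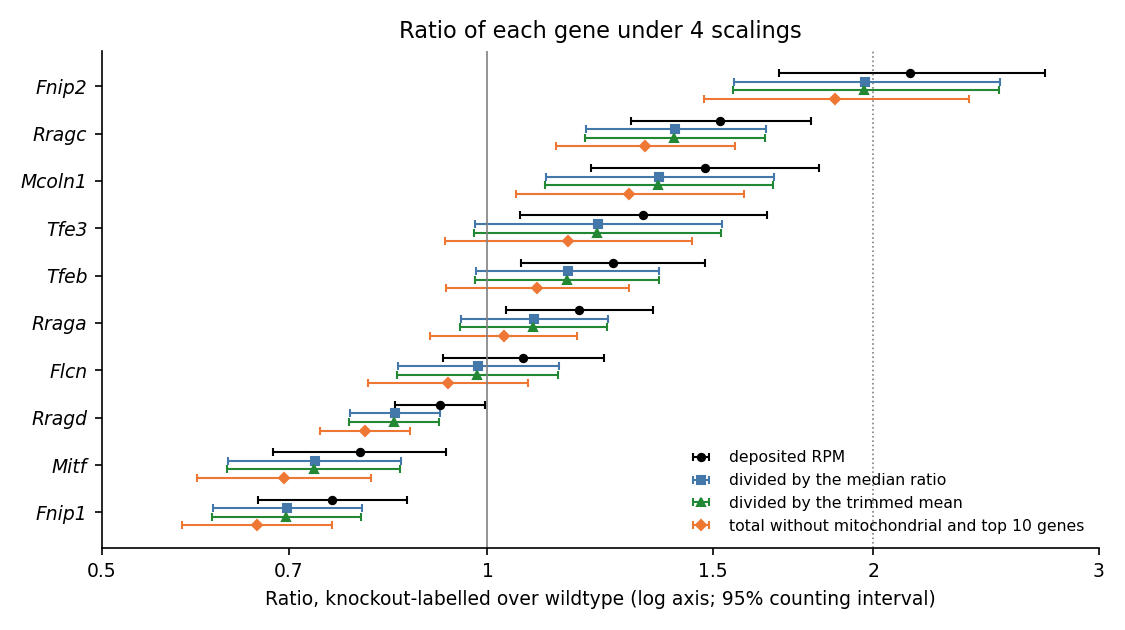
Ratio of the knockout-labelled to the wildtype level of each of the 10 genes (log axis) on the deposited scale and after 3 rescalings, with 95% counting intervals. The solid line marks a ratio of 1 and the dotted line a ratio of 2. Fnip2, Rragc and Mcoln1 stay to the right of 1 and Rragd, Mitf and Fnip1 to the left under all 4 scalings, while only the deposited scale puts Fnip2 past 2.

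Levels of different genes were compared per kilobase of annotated exons in GENCODE M21. Rraga and Rragd led in both libraries, Rraga at 30.3 and 35.8 and Rragd at 28.1 and 25.8 RPM per kilobase. In the wildtype the counting intervals of Rraga and Rragd overlapped, and in the knockout-labelled library they did not. How reads were divided between Rragd and the cDNA clone row on its strand is not given, so the order of Rraga and Rragd is uncertain. Flcn, Rragc, Fnip1 and Mitf followed in the wildtype at 10.0, 8.93, 8.33 and 6.97, each overlapping the next. Below these came Tfeb at 5.47, Mcoln1 at 2.50, Tfe3 at 1.82 and Fnip2 at 1.48 RPM per kilobase, of which Mcoln1 overlapped Tfe3 and Tfe3 overlapped Fnip2.

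In the knockout-labelled library Rragc, at 13.6 RPM per kilobase, stood above Flcn at 10.7 with intervals apart. Tfeb at 6.86, Fnip1 at 6.31 and Mitf at 5.54 followed, each overlapping the next. Mcoln1 at 3.70, Fnip2 at 3.16 and Tfe3 at 2.41 RPM per kilobase were the lowest, again each overlapping the next. The positions in the middle of this order depend on the length used. Divided by the longest annotated transcript instead of all exons, Tfeb was at 13.3 and 16.6 and ranked behind Rraga and Rragd in both libraries, and Mcoln1 was at 6.54 and 9.67.

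**Figure D4:**
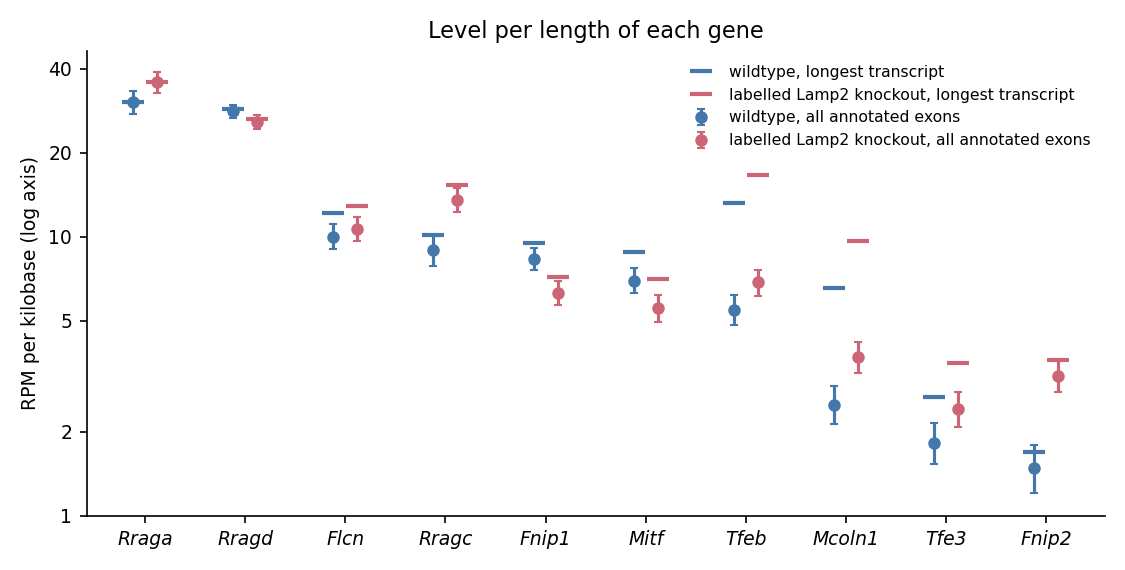
RPM per kilobase (log axis) of the 10 genes, ordered by the wildtype level, in both libraries. Points with 95% counting intervals use the length of all annotated exons, and dashes the longest annotated transcript. Rraga and Rragd are highest under either length, and Tfeb and Mcoln1 move most between the lengths.

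The other genes of the pathway were read from 8 lists with 104 of 106 entries found in the table. Ragulator is the scaffold that anchors the Rag GTPases to the lysosome. All 5 of its subunit genes, given as a group after their values were seen, had intervals above 1 on the deposited scale. Their ratios were 1.32 for Lamtor1, 1.14 for Lamtor2, 1.31 for Lamtor3, 1.32 for Lamtor4 and 1.29 for Lamtor5, of which Lamtor1 is overlapped on the opposite strand. None was called. Under the rescalings the intervals of 2, 2 and 1 of the 5 lay above 1, beside 25.9%, 25.7% and 20.4% of all measured genes, and Lamtor2 had a log2 ratio of −0.01 under the last. In the list of Ragulator and other Rag partners, 7 of 8 genes were measured and the median log2 ratio was 0.37. The highest was Borcs6, which links lysosomes to transport along microtubules, at a ratio of 1.66 (1.35 to 2.04). The lowest was Slc38a9, the arginine sensor of the lysosomal membrane, at 10.6 and 6.04 RPM, a ratio of 0.571 (0.398 to 0.811). Slc38a9 was thus below 1 while the Ragulator genes with which its product works were above it.

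In the list of GATOR complexes, KICSTOR and amino acid sensors, which relay amino acid supply to the Rag GTPases, 16 of 18 genes were measured. None was called, 8 had a log2 ratio above 0 and 8 below, and the median was 0.02. Sesn1, a leucine sensor of the sestrin family, was highest at 94.4 and 183 RPM, a ratio of 1.94 (1.78 to 2.11). Wdr24, a GATOR2 subunit, was lowest at a ratio of 0.681 (0.480 to 0.963). In the list of mTORC1, Rheb and the TSC complex, 1 of 11 genes was called higher and 0 lower. Among all measured genes 3.35% were called higher and 2.37% lower. The median of this list was 0.11. The called gene was Eif4ebp1, a translation repressor that mTORC1 phosphorylates, at 209 and 426 RPM, a ratio of 2.04 (1.93 to 2.16). Its log2 ratio was 1.03 on the deposited scale and 0.91 after division by the median ratio, so that call ended. Rptor, the mTORC1 subunit that recruits substrates, was lowest at 0.761 (0.634 to 0.914), although a row on the opposite strand overlaps it.

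Of 12 genes for lysosomal ion channels and the lipid kinase PIKfyve, 9 were measured. Of these, 0 were called higher and 1 lower, beside 3.35% and 2.37% of all measured genes. Clcn3, a chloride and proton exchanger of endosomes, was at 32.9 and 13.7 RPM, a ratio of 0.415 (0.332 to 0.516). Clcn6, a related exchanger, was highest at 1.55 (1.20 to 2.003), and the median of the list was 0.26. Of 5 calcineurin subunit genes, whose product acts on TFEB downstream of MCOLN1, 4 were measured and none was called, with a median of 0.18. The catalytic subunit genes Ppp3cc and Ppp3cb stood at 1.499 (1.15 to 1.96) and 0.807 (0.666 to 0.977), and each is overlapped on the opposite strand. Of 7 genes for 14-3-3 proteins, which hold phosphorylated TFEB in the cytoplasm, 6 were measured and none was called. Their median was −0.0048 on the log2 scale, with Ywhah at 1.69 (1.46 to 1.97) and Ywhag at 0.873 (0.826 to 0.921). Of 7 subunit genes of AMPK, the energy sensor that binds FNIP proteins, 6 were measured and none was called, with a median of 0.15. Prkag2 stood at 1.28 (0.995 to 1.66), with opposite-strand rows overlapping it, and Prkaa2, a catalytic subunit gene, at 0.901 (0.827 to 0.982). Apart from the list with Ragulator, these lists of the sensing machinery had medians between −0.0048 and 0.26, beside 0.11 for all measured genes. Under the third rescaling they lay between −0.19 and 0.07, beside −0.07 for all measured genes.

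The last list held lysosomal genes known as targets of the MiT/TFE factors, called the CLEAR network. Of 38 genes 35 were measured, 31 lay above 0 on the log2 scale, beside 61.2% of all measured genes, with a median log2 ratio of 0.44, against 0.11 for all measured genes. The called genes were 2, both higher, beside 3.35% of all measured genes: the sialidase gene Neu1 at 2.54 (2.02 to 3.22) and the proton pump subunit gene Atp6v1b2 at 2.38 (2.14 to 2.65), which is overlapped on the opposite strand. The lowest was Glb1, which encodes a lysosomal galactosidase, at 0.672 (0.453 to 0.991), whose row shares its strand and position with Tmppe. The median was 0.33, 0.33 and 0.25 under the rescalings, so it stayed above 0 on each scale. Most macrophage markers were also higher. Of 8 such markers 7 were measured, and all 7 had a log2 ratio above 0, beside 61.2% of all measured genes. Called higher, beside 3.35% of all measured genes, were 2, the complement genes C1qa and C1qb. These stood at 37.7 and 82.1 RPM and at 45.8 and 121 RPM, a large part of the sum below. The interval lay above 1 for 6 of the 7, and for 5, 5 and 4 under the rescalings. Among all measured genes it did so for 35%, and for 25.9%, 25.7% and 20.4% under the rescalings. Mrc1 had a ratio of 1.02 (0.783 to 1.32) and Csf1r one of 1.20 (1.004 to 1.43). The sum of the 8 markers was 156 RPM in the wildtype and 302 RPM in the knockout-labelled library, and none of the 8 was at 0 reads in both. Markers of other cells were not alike in the libraries either. Of 6 fibroblast markers 3 were called lower (Col1a1, Col3a1 and Lum), beside 2.37% of all measured genes. The median log2 ratio of the 6 was −1.30, and their sum was 505 and 455 RPM. Tcf21 was lower without a call, at 0.554 (0.367 to 0.824). Dcn, the most abundant, at 1.04 (0.989 to 1.09) and Pdgfra at 0.982 (0.848 to 1.14) did not differ beyond counting error. All 5 smooth muscle and pericyte markers lay below 0, with a median of −0.43 and sums of 767 and 696 RPM. The 5 endothelial markers had a median of 0.11. Of the neutrophil markers S100a9 alone was measured, with 5 and 88 reads, or 0.594 and 10.03 RPM. No adipocyte, T cell or B cell marker was measured. The adipocyte markers summed to 5.11 and 1.14 RPM, and those of T and B cells to 0.713 and 0.798 RPM. The part of these cell types, including macrophages, which are rich in lysosomes, in the values of the lysosomal list and of the 10 genes was not tested.

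**Figure D5:**
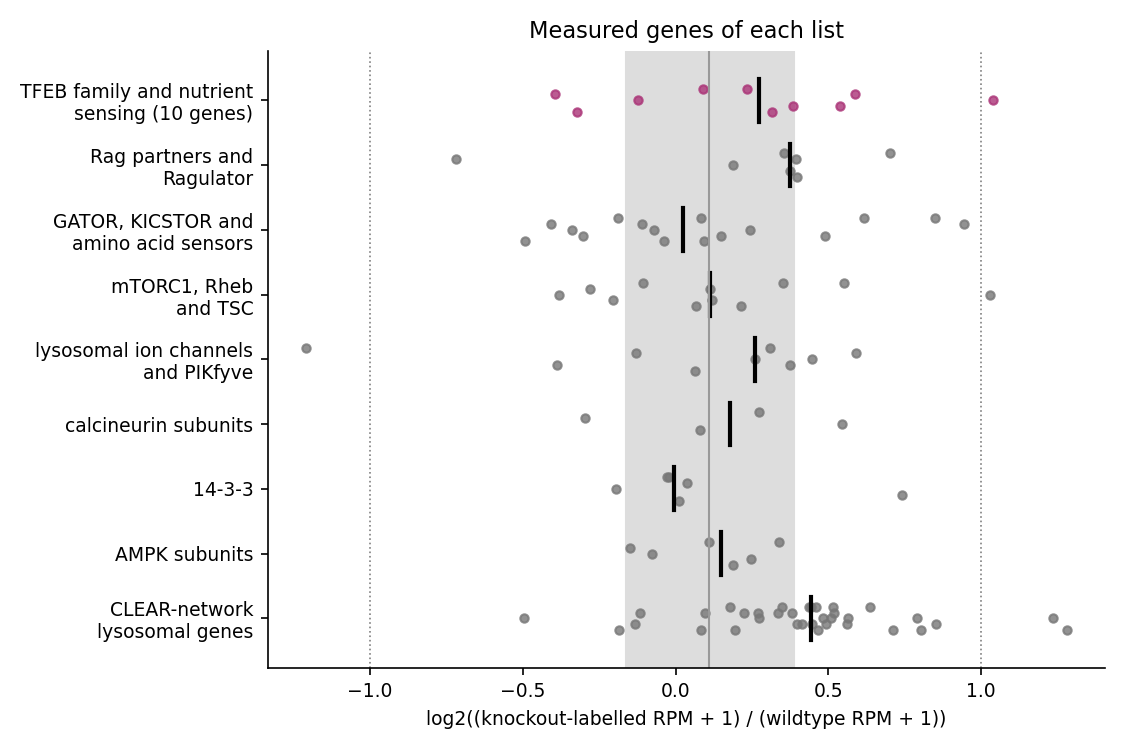
Log2 ratio, with 1 RPM added to each level, of the measured genes in the 10 described genes and in the 8 pathway lists, 1 point per gene, with list medians as black bars. The grey line and band give the median (0.11) and quartiles of all measured genes, and dotted lines mark the 2-fold rule. The CLEAR-network list lies to the right, with a median of 0.44, and Fnip2, Eif4ebp1, Neu1 and Atp6v1b2 lie past the right dotted line and Clcn3 past the left.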

How the data were processed

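Groups (1 wildtype and 1 Lamp2 knockout library) follow the genotype labels. The submitters' processing notes name STAR, mm10 and GRCm38. It is not given in the sources used here how reads were counted, with which annotation and whether by strand. The deposited table holds read counts per gene and, per the file headers, normalised values, which equal the authors' reads per 1000000 (RPM) over all listed genes with a largest difference of 5e-05. The authors' deposited fold (ratio) and p-value columns were not used. Deposited starts count from 0 and are given plus 1.

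Ratios of RPM carry exact conditional binomial (Clopper-Pearson) 95% intervals. They cover counting error only, since each group holds 1 library. They treat reads as independent, which reads without molecular identifiers are not, so they may be too narrow even for counting error. The measured minimum was 5 RPM, the pseudocount 1 RPM and the rule of size 2-fold, across all genes. The trimmed mean left out 30% of ratios and 5% of levels at each end. Scripts were tested on simulated data. The alternatives were pseudocounts, minimums, sizes and rescalings. Named genes were the 10 genes, their closest relatives, Lamp2, and from each list the called, highest and lowest genes. The Lamtor, Castor and other sestrin genes, the cell type markers and overlapping rows stand outside this rule and were named after their values were seen. The 10 genes, the lists and the rules were chosen with earlier results of these data known. Older symbols were matched through RefSeq names on GRCm38.p6, and Kics2, Atp6v0c and Ly6g were not analysed here. Python 3.11.15, numpy 2.4.6, pandas 2.3.3, scipy 1.17.1 and matplotlib 3.10.9 were used.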

Additional observations from a re-analysis of the deposited data

How the results depend on the processing

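The count of the 10 genes called higher was 1 (Fnip2). It fell to 0 with a pseudocount of 5 RPM, under each of the 3 rescalings and at a 3-fold rule, and was 2 at a 1.5-fold rule. The count called lower stayed at 0 under every alternative run. Of 50 alternative values of the 10 log2 ratios, 47 lay within the counting interval of the ratio, and 3 did not: Rraga at 0.04 under the scaling without mitochondrial transcripts, and Rragd at −0.24 with the trimmed mean and −0.32 under that scaling. All 64 alternative list medians stayed within the median counting interval of their list. Counting intervals of single genes are wide beside the shifts from rescaling, so this check is loose. Under the scaling without mitochondrial transcripts some list medians turned negative, at −0.16 (GATOR), −0.08 (mTORC1), −0.02 (calcineurin) and −0.04 (AMPK). The 14-3-3 median was −0.19 there. Those of the Ragulator, ion channel and CLEAR lists stayed above 0, at 0.19, 0.07 and 0.25. The GATOR median was also negative under the first 2 rescalings (−0.08 and −0.09), as was the mTORC1 median (−0.003 and −0.005). Among all measured genes, 342 were called higher and 242 lower. These counts were 194 and 75 with a pseudocount of 5 RPM, 215 and 375 under the scaling without mitochondrial transcripts, and 220 and 92 with a minimum of 20 RPM. They were 1307 and 745 at a 1.5-fold rule and 87 and 46 at a 3-fold rule, and 397 were called lower both with a minimum of 1 RPM and with no minimum. No replicate could be left out, and no paired analysis was possible because each group holds 1 library. Depth limits the scarcer genes most: Fnip2 had 104 reads in the wildtype, and its ratio is known less closely than that of Rragd.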

Other observations

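Among the arginine sensors of the CASTOR family, which bind GATOR2 and were singled out after their values were seen, the related genes also lay on opposite sides of 1. Castor1, listed under the older symbol Gatsl3, stood at 6.90 RPM in the wildtype and 13.2 RPM in the knockout-labelled library, a ratio of 1.92 (1.39 to 2.68). Castor2, listed as Gatsl2, stood at 30.1 and 22.5 RPM, a ratio of 0.746 (0.616 to 0.903). Of the other sestrin genes, Sesn3 had a ratio of 0.756 (0.489 to 1.16) and Sesn2, below the minimum for a measured gene, had 26 and 34 reads.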
